A study of Homo sapiens with 8 samples.

Results

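G1/S cyclins, cyclin-dependent kinases (CDKs) and the phosphatase CDC25A were followed in PZH-treated and DMSO-treated cells. The members were CCND1, CCND2, CCND3, CCNE1, CCNE2, CCNA2, CDK2, CDK4, CDK6 and CDC25A, taken as the rows of the count table with these symbols, 10 of 35394 genes. A filter on low counts left 15006 genes, with 9 of the 10 members among them, and CCND2 was removed by it. The cells were HCT116, an established human colorectal cancer line of epithelial origin whose genotype label is a ras mutation. In 4 samples they had received PZH for 24 h, the abbreviation for Pien Tze Huang, which is a formula of traditional Chinese medicine, and in the other 4 they had received DMSO as the control. Poly(A) RNA was sequenced. The labels give no PZH dose and no treatment time for DMSO. All samples come from this 1 line, and nothing says whether replicates were separate cultures, so p-values measure the spread between these samples, which may be technical.

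Passage from G1 into S phase is driven by these genes in sequence. D-type cyclins (CCND1, CCND2, CCND3) carry growth signals to CDK4 and CDK6, which phosphorylate the retinoblastoma protein and so release E2F transcription factors. E-type cyclins (CCNE1, CCNE2) then activate CDK2 at the start of DNA synthesis, and cyclin A2 (CCNA2) activates it through S phase. CDC25A is the phosphatase that removes inhibitory phosphates from CDK2 and its relatives. In colorectal cancer the Wnt and RAS pathways are known to raise cyclin D1.

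Libraries held 18144117 to 18868057 counts in PZH and 19288836 to 19917571 in DMSO. Levels are given as CPM, counts scaled to a common library total with TMM factors, and 3 counts in a library, the floor used here, correspond to 0.170 to 0.182 CPM in PZH and 0.137 to 0.143 CPM in DMSO. The biological coefficient of variation was 8.02% among PZH and 3.55% among DMSO libraries. Of 8 markers of colon epithelium 7 reached 1 CPM in at least 1 library, and the microvillus gene VIL1 stayed at or below 0.204 CPM. KRT20 reached 1 CPM only in DMSO, at 1.19 to 1.71 CPM, against 0 to 0.108 CPM in PZH. Marker levels are given without scaling factors, and those of colon epithelium summed to 2382 to 2707 CPM in PZH and 3847 to 3915 CPM in DMSO. The markers were not uniform: keratin KRT8 had 829 to 971 CPM in PZH and 2036 to 2082 CPM in DMSO, whereas E-cadherin CDH1 had 218 to 237 CPM in PZH and 81.6 to 92.4 CPM in DMSO. EPCAM had 266 to 281 CPM in PZH and 288 to 311 CPM in DMSO. Fibroblast markers summed to 17.5 to 21.3 CPM in PZH and 11.7 to 14.3 CPM in DMSO, nearly all of it COL1A1, with COL1A2 at 0. Endothelial, immune and erythroid markers each summed to at most 1.76 CPM in any library. What part these marker differences have in the members' changes was not tested.

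All 9 tested members were lower in PZH, and in each the highest PZH library lay below the lowest DMSO library. Calls came from the quasi-likelihood test in edgeR, with p adjusted over all genes by the Benjamini-Hochberg method and a threshold of 0.05. By the same rule 40.9% of all tested genes were called lower, and every PZH library lay below every DMSO library in 38.4%. The calls in either direction took in 80.3% of genes, 39.3% of genes were called higher, and in 36.6% every PZH library lay above every DMSO library. Because so many genes differed, the members were also tested against a minimum change of 2-fold (edgeR's glmTreat). CCNA2, CCNE2, CCND1, CDC25A, CCND3 and CDK2, 6 of the 9, were lower by more than 2-fold, as were 14.2% of all tested genes, with a further 11.8% higher by that rule and 26.0% past 2-fold either way. CDK4, CDK6 and CCNE1 were not. The median log2 fold change, PZH over DMSO, was -1.49 over the 9 members and -0.02 over all tested genes. In bulk RNA, fewer cells in a cycle phase and less RNA per cell cannot be told apart.

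**Figure D1:**
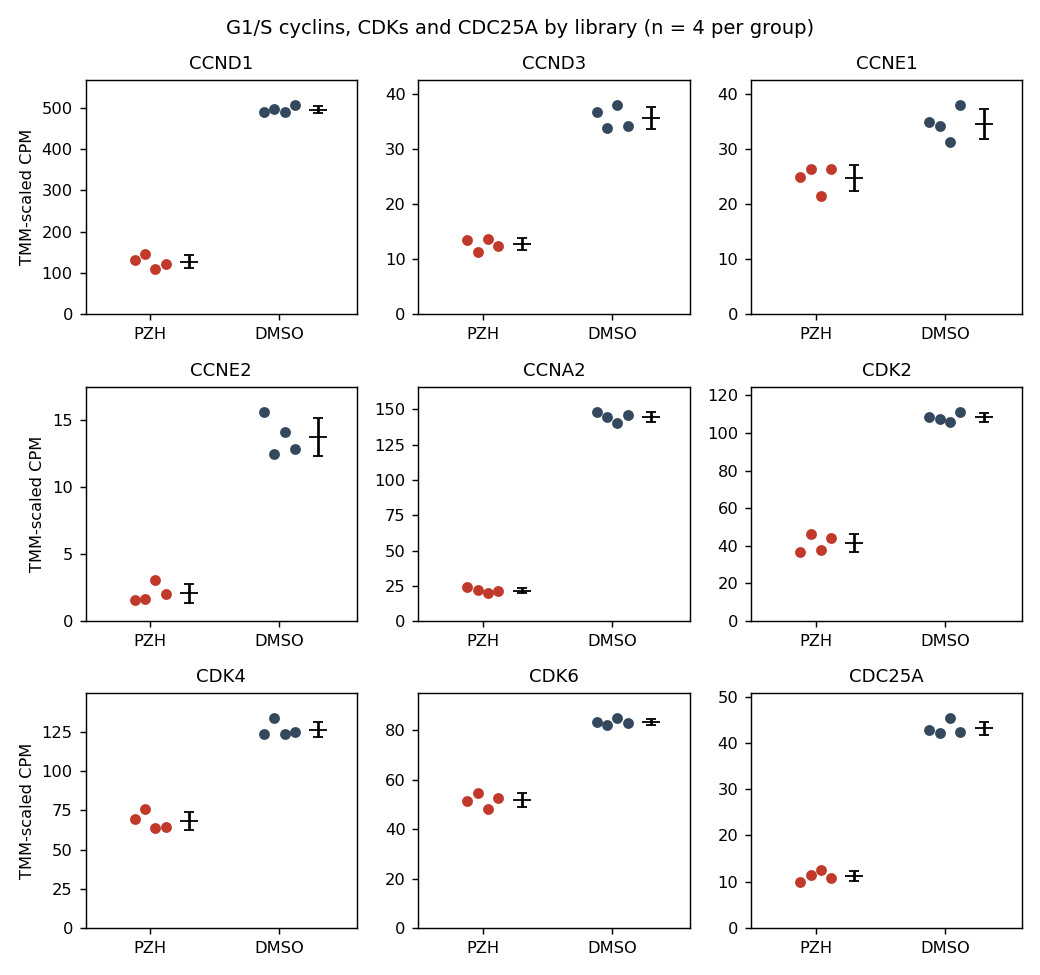
TMM-scaled CPM of the 9 tested genes in each library (points), with the mean and SD of the 4 libraries per group beside them; each axis starts at 0. PZH points lie below DMSO points in every panel, with the widest relative gap in CCNA2 and CCNE2 and the narrowest in CCNE1.

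No promoter sequence was available for CCND1, CCND2, CCNE2 and CDK2. The promoters of 4 members are shown because these genes span the range of responses, from the 6.68-fold fall of CCNA2 to the 1.40-fold fall of CCNE1. Each is the 250 bases before the gene's start from RefSeq (GRCh38.p14), 5′ to 3′ on the gene's strand, and capitals mark matches on either strand to 5 motifs. The motifs were the E2F words TTTCCCGC, TTTCGCGC, TTTGCCGC and TTTGGCGC, the cell cycle homology words TTTGAA and TTCGAA, the cAMP response element TGACGTCA, the CCAAT box and the E-box CACGTG, the last added after the sequences were read.
CCNA2, chr4:121823884-121824133, minus strand: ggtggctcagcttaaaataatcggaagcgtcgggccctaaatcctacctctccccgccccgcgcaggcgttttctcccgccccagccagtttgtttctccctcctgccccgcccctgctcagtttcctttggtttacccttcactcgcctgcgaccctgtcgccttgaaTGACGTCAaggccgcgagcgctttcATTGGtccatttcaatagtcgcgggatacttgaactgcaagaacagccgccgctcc
CDC25A, chr3:48188418-48188667, minus strand: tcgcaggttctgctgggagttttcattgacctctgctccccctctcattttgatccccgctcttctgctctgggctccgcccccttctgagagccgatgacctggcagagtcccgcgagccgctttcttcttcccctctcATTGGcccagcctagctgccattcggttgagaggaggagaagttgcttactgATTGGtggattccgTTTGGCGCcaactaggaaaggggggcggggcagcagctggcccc
CDK4, chr12:57752311-57752560, minus strand: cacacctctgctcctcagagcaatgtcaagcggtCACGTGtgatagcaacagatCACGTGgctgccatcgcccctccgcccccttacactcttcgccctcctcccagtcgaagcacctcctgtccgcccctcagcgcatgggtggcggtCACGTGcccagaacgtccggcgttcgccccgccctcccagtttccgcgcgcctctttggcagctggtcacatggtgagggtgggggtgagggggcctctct
CCNE1, chr19:29811741-29811990, plus strand: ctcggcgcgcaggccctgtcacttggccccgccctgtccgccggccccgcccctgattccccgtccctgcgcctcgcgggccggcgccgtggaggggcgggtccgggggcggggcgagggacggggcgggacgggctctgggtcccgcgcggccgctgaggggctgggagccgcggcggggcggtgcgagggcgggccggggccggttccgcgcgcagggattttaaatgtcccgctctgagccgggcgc

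In the CCNA2 window the cAMP response element stood at positions -81 to -74 from the start and an inverted CCAAT box at -56 to -52. CDC25A held the E2F word TTTGGCGC at -44 to -37 and a pair of inverted CCAAT boxes at -110 to -106 and -58 to -54. The CDK4 window held 3 E-boxes, at -216 to -211, -196 to -191 and -101 to -96, and the CCNE1 window held none of these motifs. Among windows not shown, those of CDK6 held none either, and those of CCND3 held no motif other than CCAAT boxes. Of 35116 promoter windows of the same length, 2.79% held an E2F word, 14.3% a cell cycle homology word, 1.65% the cAMP response element, 32.0% a CCAAT box and 6.34% the E-box. A match describes letters only, and no binding was measured.

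Cyclin D1, the main D-type cyclin of these cells, fell 3.88-fold. In PZH replicates 1 to 4 CCND1 had 133, 146, 111 and 122 CPM, and in DMSO replicates 1 to 4 it had 489, 497, 489 and 507 CPM. The DMSO values lay within a narrow band, while PZH replicates 1 and 2 stood above 3 and 4. Its log2 fold change was -1.96 ± 0.063 (SE; edgeR adjusted p = 5.45e-18), at the 6.44th percentile of all tested genes. CCND3, a D-type cyclin used in many tissues, had 13.4, 11.2, 13.7 and 12.5 CPM in PZH against 36.7, 33.8, 38.0 and 34.2 CPM in DMSO. It fell 2.81-fold (log2 fold change -1.49 ± 0.078, edgeR adjusted p = 4.32e-14), with groups well apart.

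CCND2 was near the limit of detection. It had 1, 4, 6 and 3 counts in PZH replicates 1 to 4 and 1, 0, 0 and 0 in DMSO replicates 1 to 4. Summed over each group, these were 14 counts in PZH and 1 in DMSO, a ratio per unit depth of 17.7 with a 95% exact binomial interval of 2.69 to 747, which covers counting error only. AC008012.1, on the same strand, covers 13.8% of the exon bases of CCND2. With no filter on low counts CCND2 was called higher (edgeR adjusted p = 0.0126) but not past 2-fold (adjusted p = 0.0615). Per length, it made up little of the D-type pool in either group: CCND1 held 92.2 ± 1.39% of it in PZH and 94.3 ± 0.378% in DMSO, and CCND3 held 7.74 ± 1.35% and 5.66 ± 0.377% (mean ± SD, n = 4).

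The D-type partner kinases fell less than cyclin D1. CDK4 stood at 69.3, 75.9, 63.5 and 64.4 CPM in PZH, against 124, 134, 124 and 125 CPM in DMSO. This was a 1.85-fold fall (log2 fold change -0.89 ± 0.054, edgeR adjusted p = 7.11e-13). The glmTreat test past 2-fold was not passed (adjusted p = 1), but was passed when the TMM factors were left out (adjusted p = 0.00651 at a log2 fold change of -1.15). CDK6 stood at 51.3, 54.8, 48.0 and 52.7 CPM in PZH, against 83.5, 82.2, 84.8 and 83.1 CPM in DMSO. It fell 1.61-fold (log2 fold change -0.69 ± 0.050, edgeR adjusted p = 1.65e-11). For both kinases the groups did not overlap, and the PZH values kept 54.0% of the DMSO level for CDK4 and 62.0% for CDK6. Nothing in the labels says whether counting used strand. TSPAN31, on the opposite strand, covers 43.2% of the exon bases of CDK4, so reads there cannot be told apart. TSPAN31 itself had 11.7 ± 1.61 CPM in PZH and 9.10 ± 0.207 CPM in DMSO. Shorter opposite-strand overlaps touch CDK2 (AC025162.1, 14.5% of its exon bases), CCND1 (LTO1, 10.3%) and CCNA2 (EXOSC9, 9.08%). LTO1 had 22.2 ± 2.79 CPM in PZH and 14.3 ± 0.902 CPM in DMSO. EXOSC9 had 56.6 ± 2.09 CPM in PZH and 78.6 ± 2.25 CPM in DMSO.

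The E-type cyclins, close relatives that both activate CDK2, differed sharply in size of response. CCNE1 showed the smallest change of all members, with 24.9, 26.5, 21.5 and 26.4 CPM in PZH against 34.9, 34.3, 31.3 and 38.1 CPM in DMSO. It fell 1.40-fold (log2 fold change -0.48 ± 0.076, edgeR adjusted p = 4.84e-06), and the groups were apart by less than 5 CPM at their nearest. CCNE2 had 1.58, 1.65, 3.08 and 1.999 CPM in PZH against 15.7, 12.5, 14.1 and 12.9 CPM in DMSO, a 6.64-fold fall (log2 fold change -2.73 ± 0.163, edgeR adjusted p = 4.23e-13). PZH replicate 3 was the highest of its group, with 51 counts where the others had 28, 28 and 33. INTS8, on the opposite strand, covers 37.0% of the exon bases of CCNE2 and had 135 ± 6.57 CPM in PZH and 110 ± 1.56 CPM in DMSO. Of the E-type level per length, CCNE2 made up 4.74 ± 1.98% in PZH and 18.8 ± 2.20% in DMSO (mean ± SD, n = 4).

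CDK2, the kinase of the E- and A-type cyclins, had 36.5, 46.5, 38.0 and 44.3 CPM in PZH against 108, 108, 106 and 111 CPM in DMSO. It fell 2.62-fold (log2 fold change -1.39 ± 0.063, edgeR adjusted p = 2.53e-15), and its PZH libraries spread more widely than its DMSO libraries. CCNA2 had 23.8, 21.7, 19.9 and 21.2 CPM in PZH against 148, 145, 140 and 146 CPM in DMSO. It fell 6.68-fold (log2 fold change -2.74 ± 0.056, edgeR adjusted p = 1.94e-21), at the 2.36th percentile of all tested genes. Of the members it was the one whose change was largest against its error.

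CDC25A had 9.96, 11.5, 12.4 and 10.7 CPM in PZH against 42.7, 42.2, 45.3 and 42.4 CPM in DMSO. It fell 3.87-fold (log2 fold change -1.95 ± 0.075, edgeR adjusted p = 1.41e-16), close to the fall of CCND1. With the GC trend removed the 2 were less alike, at log2 fold changes of -1.90 for CDC25A and -1.62 for CCND1. CDC25B and CDC25C, relatives of CDC25A that act mainly at the entry into mitosis, fell 3.02-fold and 2.96-fold.

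**Figure D2:**
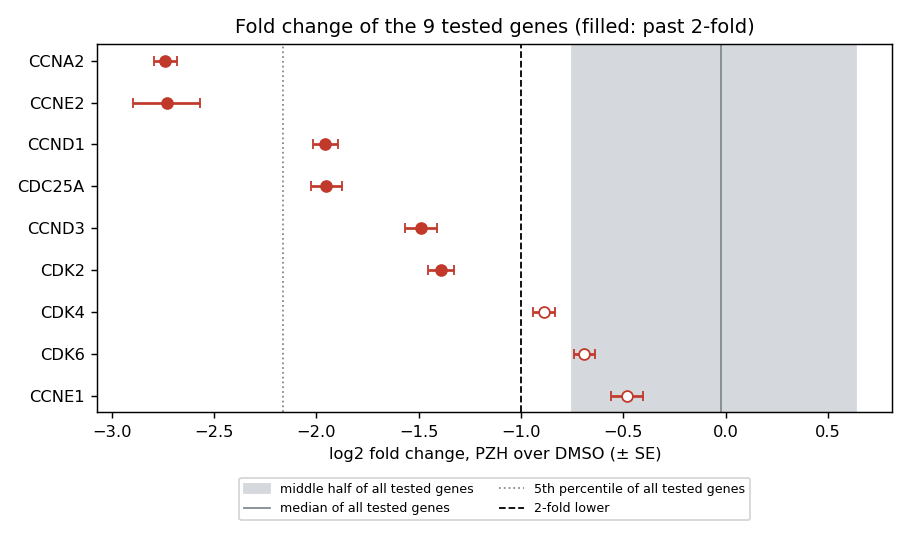
Log2 fold change, PZH over DMSO, of the 9 tested genes with its standard error, filled where the change was past 2-fold. The grey band holds the middle 50% of all tested genes, -0.75 to 0.64, and the dotted line is their 5th percentile at -2.16; CCNA2 and CCNE2 lie below that line, and CDK6 and CCNE1 lie inside the band.

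Levels of different genes were compared per length, as CPM per kilobase of merged GENCODE 29 exons, which may not be the authors' gene models. Overlap with opposite-strand genes, on 43.2% of the exon bases of CDK4 and 37.0% of those of CCNE2, was not corrected for. In PZH the order was CCND1 at 26.4 ± 3.08, CDK4 at 21.5 ± 1.80, CDK2 at 10.6 ± 1.25, CCNE1 at 9.73 ± 0.906, CCNA2 at 7.74 ± 0.587, CDK6 at 4.22 ± 0.230, CDC25A at 2.71 ± 0.259, CCND3 at 2.19 ± 0.193 and CCNE2 at 0.473 ± 0.157 CPM per kilobase (mean ± SD, n = 4). Library values overlapped between CCND1 and CDK4, between CDK2 and CCNE1, and between CCNE1 and CCNA2. In DMSO the order was CCND1 at 103 ± 1.73, CCNA2 at 51.8 ± 1.21, CDK4 at 39.9 ± 1.53, CDK2 at 27.8 ± 0.592, CCNE1 at 13.6 ± 1.09, CDC25A at 10.5 ± 0.349, CDK6 at 6.80 ± 0.0874, CCND3 at 6.15 ± 0.348 and CCNE2 at 3.14 ± 0.323. There no neighbours in the order overlapped in library values. CCNA2 stood below CDK4, CDK2 and CCNE1 in PZH, and next to CCND1 in DMSO. The D-type cyclins together stood at 1.11 ± 0.0375 times the level of CDK4 and CDK6 together in PZH and 2.33 ± 0.0757 times in DMSO.

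**Figure D3:**
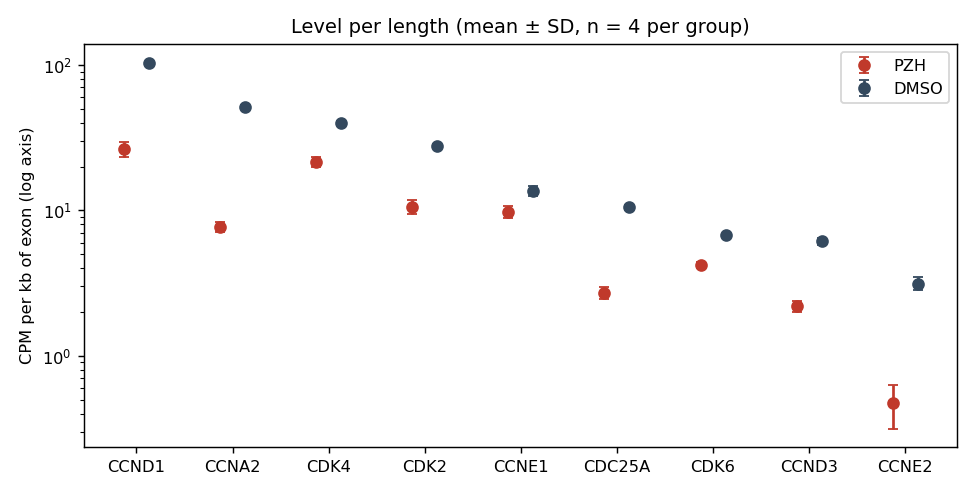
Mean level per kilobase of exon on a log axis, with SD over the 4 libraries per group, for the 9 tested genes in the order of their DMSO level. The PZH and DMSO points lie closest for CCNE1 (9.73 and 13.6) and farthest apart for CCNA2 (7.74 and 51.8) and CCNE2 (0.473 and 3.14).

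Whether members changed unequally was tested with 12 count ratios formed within each library, which do not depend on the scaling between libraries. The test was an exact two-sided permutation over the 70 assignments of libraries, adjusted over the 12 ratios. The smallest p it allows is 0.0286. At that p, and an adjusted p of 0.0343, stood 10 ratios, those of each pair that did not overlap between groups. How many other gene pairs would pass was not computed. Among single tested genes, every PZH library lay below every DMSO library in 38.4% and above in 36.6%.

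Cyclins D1 and A2 fell more than their kinases, and cyclin E1 fell less. CCND1 over CDK4 had a log2 ratio of 0.90 ± 0.066 in PZH and 1.97 ± 0.055 in DMSO, and CCND1 over CDK6 1.298 ± 0.106 in PZH and 2.57 ± 0.037 in DMSO (exact permutation adjusted p = 0.0343 each). CCNA2 over CDK2 was -0.93 ± 0.220 in PZH and 0.42 ± 0.027 in DMSO, so raw CCNA2 counts, not corrected for length, lay below those of CDK2 in every PZH library and above them in every DMSO library. CCNE1 over CDK2 was higher by 0.91 ± 0.076 on the log2 scale (difference ± SE), since CCNE1 fell less than its kinase. Between relatives, CCNE2 over CCNE1 was 4.84-fold lower and CDK6 over CDK4 was 1.15-fold higher. The last did not pass without DMSO replicate 2 (exact permutation adjusted p = 0.0686). With the GC trend removed from the fit, CDK4 and CDK6 had nearly equal log2 fold changes, -0.718 and -0.709. CDK2 over CDK4 was 1.42-fold lower.

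The CDK inhibitor CDKN1A (p21) was set against CCND1, and their log2 ratio was 3.19 ± 0.149 in PZH and -1.60 ± 0.023 in DMSO, 27.6-fold higher in PZH. Both ratios with CCND2 passed, but their size rests on 1 count in DMSO and is not given. With nothing added to the counts neither could be formed, since DMSO replicates 2 to 4 held 0 CCND2 counts, and 8 ratios passed. PZH replicate 1 and DMSO replicate 1 each held 1 CCND2 count, so that both passed says little about CCND2 itself. CCND3 over CCND1 differed by 0.47 ± 0.150 on the log2 scale and did not pass (exact permutation adjusted p = 0.0571), although it did without PZH replicate 2 (adjusted p = 0.0312). CDC25A over CDC25B differed by -0.35 ± 0.119 (adjusted p = 0.0571) and passed without PZH replicate 3 (adjusted p = 0.0312).

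**Figure D4:**
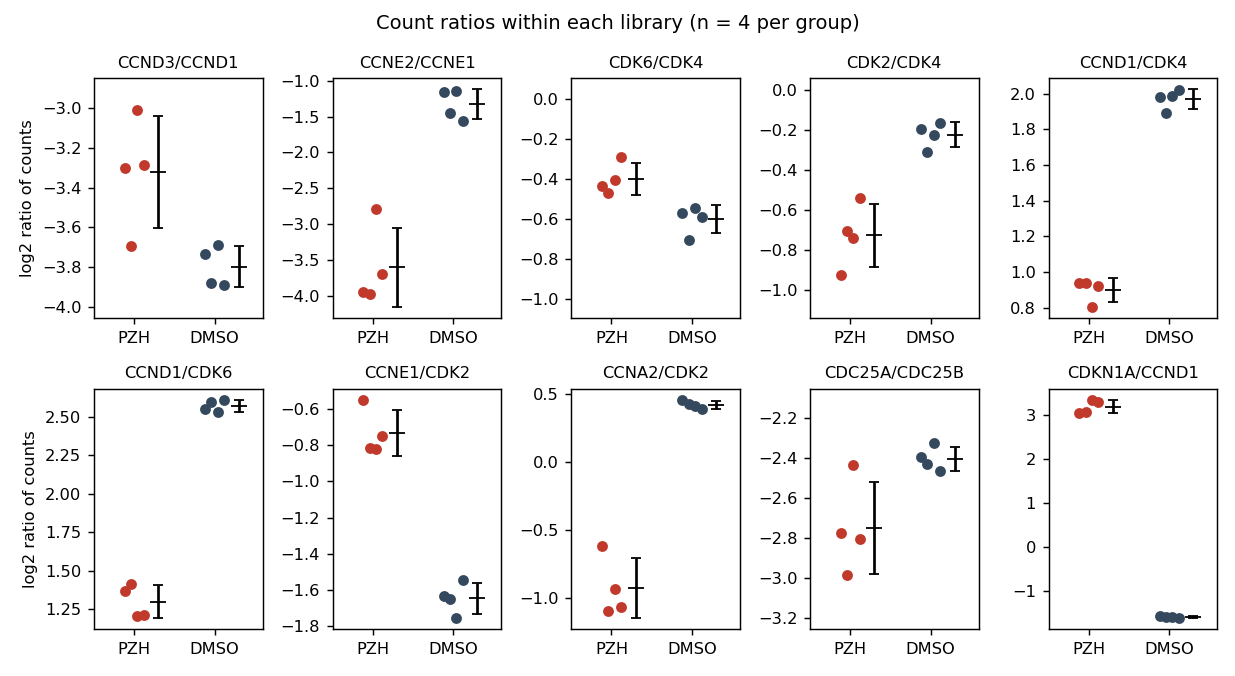
Log2 ratios of counts within each library (points) for the 10 pairs without CCND2, with mean and SD of the 4 libraries per group; each panel has its own axis. PZH and DMSO points overlap for CCND3/CCND1 and CDC25A/CDC25B and are apart in the other 8 panels.

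The order of the PZH libraries differed between members, and nothing is read from it. For CCND1, CCNA2 and CDK4, replicates 1 and 2 lay above replicates 3 and 4, and for CCNE2 they lay below. Over all tested genes 17.6% stood higher in replicates 1 and 2 and 17.8% in 3 and 4. With either pair alone against DMSO, comparisons chosen after seeing the data, 9 members were called and 6 were past 2-fold. Most genes were called there too, 11754 with replicates 1 and 2 and 12221 with replicates 3 and 4. The share of all genes past 2-fold was not counted in these fits. CCNE2 then ranged from -3.07 with replicates 1 and 2 to -2.42 with replicates 3 and 4 on the log2 scale.

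Regulators around the members moved in both directions. Of the 7 CDK inhibitors, 3 were called higher and 2 lower (2 higher and 3 lower when unscaled), with a median log2 fold change of 0.14. CDKN1A, a p53 target, rose 7.09-fold to 1159 ± 54.7 CPM in PZH, against 164 ± 1.58 CPM in DMSO, and the INK4 inhibitor CDKN2B rose 2.13-fold. CDKN2C (p18), an inhibitor of CDK4 and CDK6, fell 12.9-fold, and CDKN2A fell 1.59-fold. CDKN1B (p27) was called higher at a log2 fold change of 0.22, a call lost without scaling factors (-0.04). CDKN1C and CDKN2D did not pass, at log2 fold changes of -0.09 ± 0.131 and 0.14 ± 0.126 (edgeR adjusted p = 0.553 and 0.303), but CDKN1C was called lower without scaling factors (-0.35, adjusted p = 0.0194) and CDKN2D higher with the GC trend removed (0.41, adjusted p = 0.00434).

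Of the 13 retinoblastoma and E2F family genes 11 were lower and 2 higher, at a median of -0.61. Of the activators, E2F2 fell 21.6-fold to 1.82 ± 0.795 CPM in PZH, against 39.4 ± 2.40 CPM in DMSO, and E2F1 fell 7.43-fold, while E2F3, named after its values were seen, fell 1.24-fold. The repressor E2F8 fell 10.3-fold and the dimer partner TFDP1 fell 7.48-fold. Among 12 S phase entry genes under E2F, 11 were lower and 1 higher, at a median of -2.90. MCM2 of the replicative helicase fell 12.02-fold, thymidylate synthase TYMS 10.2-fold, UHRF1 9.73-fold and thymidine kinase TK1 6.49-fold. The exception was CDC6, a loader of that helicase, named after its values were seen, which rose 1.38-fold to 192 ± 4.98 CPM in PZH, against 139 ± 5.33 CPM in DMSO.

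All 8 G2 and mitotic regulators fell, at a median of -1.81. CCNF fell 9.96-fold, CCNB1 6.12-fold, the kinase PKMYT1 4.29-fold, CDK1 4.08-fold, the kinase WEE1 2.91-fold and CCNB2 2.78-fold. Cyclins with other roles went the other way, with 10 of 11 higher and 1 lower (9 and 1 when unscaled), at a median of 0.83. Cyclin CCNI rose 2.45-fold, the splicing-linked CCNL1 2.105-fold, CCNG2 2.08-fold and the transcription elongation cyclin CCNT2 1.80-fold, while CCNG1, named after its values were seen, fell 1.43-fold. Of 14 other CDKs 11 were higher and 3 lower (7 and 3 when unscaled), at a median of 0.40. CDK7, which phosphorylates and activates the CDKs of the cycle, rose 2.52-fold to 148 ± 6.06 CPM in PZH, against 58.7 ± 2.56 CPM in DMSO. The transcription kinases CDK13 and CDK12 rose 2.21-fold and 1.598-fold, and CDK5 fell 6.56-fold.

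Genes for the turnover of G1/S cyclins and CDC25A were divided, 7 higher and 6 lower of 13 (5 and 6 when unscaled), at a median of 0.16. SKP2, the ubiquitin ligase subunit that targets p27, fell 8.96-fold, and the CDK-binding CKS2 fell 2.23-fold. FBXO31, known to direct cyclin D1 to degradation, rose 2.41-fold, and BTRC, which acts on CDC25A, rose 1.42-fold. Of the checkpoint kinases, which restrain CDC25A, ATM rose 1.97-fold, and CHEK1, CHEK2 and ATR fell 2.60-fold, 1.65-fold and 1.23-fold. All counts in these lists are from edgeR with adjustment over all genes tested, of which 39.3% were called higher and 40.9% lower.

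**Figure D5:**
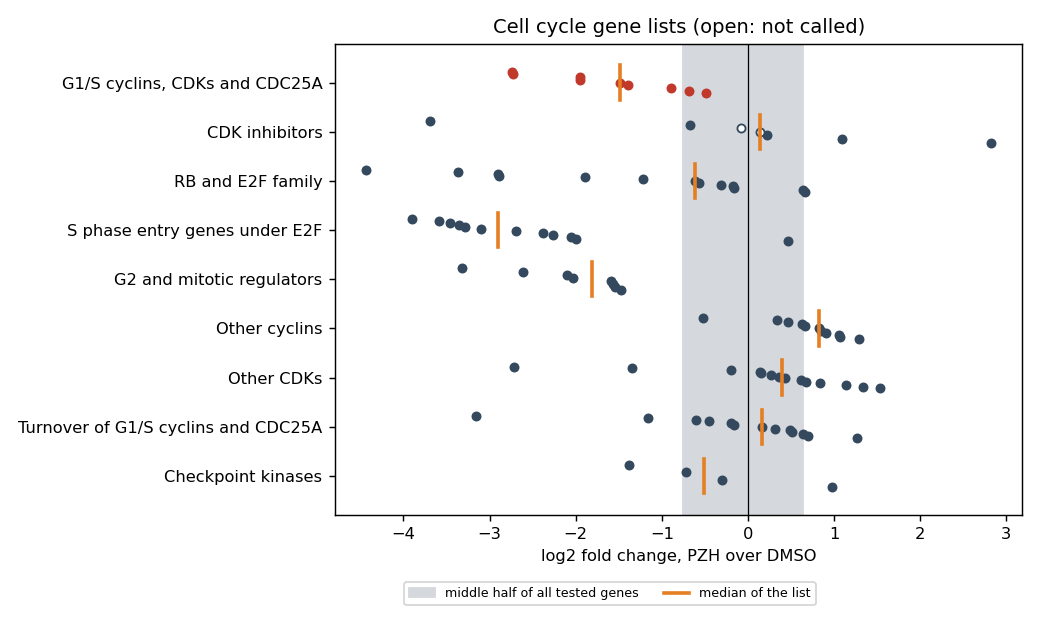
Log2 fold change, PZH over DMSO, of each tested gene in the members' list (red) and 8 other cell cycle lists (dark), open where not called, with the median of each list as a bar. The medians run from -2.90 for S phase entry genes to 0.83 for other cyclins, against the grey band that holds the middle 50% of all tested genes.

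The genes whose profiles over the 8 libraries lay nearest to a member, by Euclidean distance of centred log2 CPM, were found for 4 members. For CCND1 they were the spindle checkpoint kinase TTK, the kinetochore scaffold KNL1 and MGAT4B, at distances of 0.113, 0.115 and 0.148. For CDC25A they were COL6A1, CNTNAP1 and RAB40B (0.177, 0.206 and 0.221), for CDK4 TSEN34, MYO19 and CTSB (0.0883, 0.100004 and 0.121), and for CCNE1 YDJC, BICDL1 and SBNO1 (0.159, 0.165 and 0.176). The distance mainly reflects the difference between groups, so these are genes of similar fold change.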

How the data were processed

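The authors deposited raw counts, whole numbers without normalization, in 1 table of genes by libraries. Per the labels' protocols, poly(A) RNA was enriched from Trizol-extracted total RNA and a NEBNext Ultra RNA kit served for library construction. Tools listed in the submitters' processing notes, with no role stated, are HISAT2 2.1.0, StringTie 1.3.3b, FastQC 0.11.5 and DESeq 1.28.0; neither genome build nor gene annotation nor strandedness is stated there. Of the gene names, 25 had become dates, and these rows (0.178% to 0.220% of counts) stayed in the fit.

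Members and lists were chosen with earlier results of these data known. Genes were kept by edgeR's filterByExpr (minimum count 10, minimum total count 15), scaled by TMM and tested with glmQLFit, glmQLFTest and glmTreat, two-sided, group as the only term. Fold changes are PZH over DMSO, and SE is the log2 fold change over the square root of F. In ratios, 0.5 was added to each count. The text names all 10 members, the whole of each list of 8 genes or fewer, otherwise its 4 genes with the smallest p, and the 3 nearest profiles for 4 members.

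No replicates were treated as duplicates: the chi-square of every pair was 2.39 to 12.3 times its degrees of freedom. It was 2.39 to 2.81 times in DMSO pairs and 8.33 to 12.3 times in PZH pairs other than replicates 3 and 4. PZH replicates 3 and 4 were more alike, at 4.03 times, and whether they were separate cultures is not stated. Same-numbered libraries of the groups did not deviate together (correlations 0.006 to 0.033), so the numbers were not taken as pairs. Alternatives covered scaling, filters, DESeq2, limma-voom, robust fitting, a replicate block, thresholds, leaving out each library and, chosen after seeing the data, a GC correction (99.1% of tested genes had a GC value) and PZH subsets. The fit was tested on simulated data in which few genes differed, evenly higher and lower, with the same spread in both groups. That setting differs from these data, where 80.3% of genes were called and the coefficient of variation was 8.02% in PZH and 3.55% in DMSO. It therefore cannot show how scaling and p-values behave here. Python 3.11.15 with matplotlib 3.10.9, and R 4.3.3 with DESeq2 1.42.0, edgeR 4.0.16 and limma 3.58.1 were used.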

Additional observations from a re-analysis of the deposited data

Results flagged for a closer look

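In 11 of 150 groups of 4 libraries examined, 1 library stood far from the other 3 by Dixon's criterion, where chance flags about 1 in 20. For CDK4, DMSO replicate 2 had 134 CPM against 124 to 125 CPM in the others. For CDC25A, DMSO replicate 3 had 45.3 CPM against 42.2 to 42.7 CPM. For CCND2, DMSO replicate 1 held its only DMSO count, 0.0457 CPM, which also set apart the log2 ratios of CCND2 over CCND1 (-12.80) and CCND3 over CCND2 (9.07) in that library. The log2 ratio of CCND1 over CDK4 was 0.80 in PZH replicate 3 against 0.92 to 0.94 in the others. Outside the members, UHRF1 had 125 CPM in DMSO replicate 2 against 133 to 135 CPM, and CDC25C had 28.4 CPM in DMSO replicate 3 against 26.8 to 27.1 CPM. SBNO1 had 70.3 CPM in PZH replicate 3 against 78.0 to 78.7 CPM, and 112 CPM in DMSO replicate 4 against 102 to 103 CPM. MYO19 had 79.9 CPM in DMSO replicate 3 against 81.5 to 81.7 CPM.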

How the results depend on the processing

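All 9 tested members stayed lower and called under each of the 19 planned and 3 added alternatives of the fit, and 6 stayed past 2-fold wherever that test was run (not with DESeq2 or limma-voom), with CDK4 as a seventh without scaling factors. With a threshold of 1.5-fold in place of 2-fold 8 members passed, but the share of all tested genes at that threshold was not counted. Leaving out 1 library gave 9 members called and 6 past 2-fold each time, 11873 to 12187 genes called and 9 to 11 ratios past the threshold. Leaving out scaling factors moved the all-gene median log2 fold change by -0.26, and 36.8% of calls were higher against 49.0% as reported. With the replicate block 12014 genes and 9 members were called; sign flips within replicate numbers left 0 of 12 ratios past the threshold, since their smallest p is 0.125. Directions turned for CDKN1B (-0.036) and CDKN2D (-0.12) without scaling factors. CDKN1C, not called, turned without PZH replicate 3 (0.0283; the lowest value on leaving out a library was -0.236), with the GC trend removed (0.24) and with PZH replicates 1 and 2 only (0.0651). YDJC lost its call with the GC trend removed (-0.0042, adjusted p = 0.960). The cause of these changes was not tested. Depth limits CCND2, whose DMSO libraries all lie under the floor of 3 counts. In PZH, replicate 1 lies under it with 1 count and replicate 4 at it with 3 counts.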
